A study of Mus musculus with 4 samples.

Results

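A group of 9 genes that process, modulate or carry out the Notch signal was followed in muscle stem cells (MuSCs) of sham and overloaded plantaris muscle. They were taken by gene name from the deposited table of 19353 genes, and all 9 were found: Psen2, Ncstn and Aph1a (subunits of the γ-secretase protease), Lfng and Mfng (Fringe glycosyltransferases), Rbpj, Maml1 and Maml2 (the transcription factor of the pathway and its coactivators) and Numb (an inhibitor of the receptors). The cells came from Pax7-CreERT2:Rosa-YFP mice, in which Cre under the control of Pax7 is switched on by tamoxifen (2 injections) and labels MuSCs with yellow fluorescent protein (YFP). Overload of the plantaris was induced by cutting the tendons of its synergist muscles (tenotomy), and cells were collected 4 days later, with sham-operated muscle as the control. Both groups carried the same alleles and received tamoxifen, as far as the methods state, and no age of the mice is given in the sources used here. YFP-positive cells were sorted at 100 cells per tube and made into CEL-Seq2 libraries, 2 from sham and 2 from overloaded muscle. CEL-Seq2 reads the 3′ end of each transcript and tags each captured molecule with a unique molecular identifier (UMI), so a count is a number of molecules and does not grow with transcript length. The sources used here do not say whether the 2 tubes of a group stem from separate mice, and p-values therefore measure only the spread between these libraries, which may be technical.

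A Notch receptor that meets its ligand is cut first by a sheddase and then inside the membrane by γ-secretase. The freed intracellular domain enters the nucleus, where it binds Rbpj and a Mastermind-like (Maml) coactivator and turns on Hes and Hey genes. Fringe enzymes add sugars to the receptor that change which ligands activate it, and Numb directs receptors away from the membrane. In resting MuSCs this pathway is known to hold back differentiation, and loss of Rbpj is known to break quiescence.

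Totals were 269683 and 260488 UMIs for sham and 387955 and 483528 UMIs for overloaded libraries. Counts were normalized by TMM, which scales each library to the bulk of its genes, and are given as normalized CPM (a count as its share of the scaled library, set to a common total). One UMI was worth 4.35 and 4.53 CPM in the sham libraries and 2.60 and 2.03 CPM in the overloaded libraries. A gene counted 0 times could therefore have been present at up to 13.1 and 13.6 CPM in sham and 7.80 and 6.08 CPM in overloaded libraries, taking 3 UMIs as the limit that a count of 0 allows. Such floors cover counting error only. Per tube, without scaling, the median gene was 1.01 higher in overloaded libraries on the log2 scale, against 0.05 after TMM, so that a normalized value is relative to the rest of its library and not per cell. In these pooled cells, fewer cells that express a gene and less RNA per cell cannot be told apart.

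The labelled cell type was checked against marker genes. Pax7, the defining transcription factor of MuSCs, had 118 and 107 UMIs in sham and 108 and 137 UMIs in overloaded libraries, and all 9 MuSC markers listed were present in each library, summing to 6068 and 5078 CPM in sham and 4145 and 3641 CPM in overloaded libraries. Sdc4 had the most UMIs over all libraries, and Myf5 led in the overloaded ones (388 and 467 UMIs, against 375 and 345 for Sdc4). Of these 9 markers, 2 were higher and 6 lower past the threshold. The 7 cell cycle genes summed to 226 and 222 CPM in sham and to 1417 and 1300 CPM in overloaded libraries, and all 7 were higher. All 6 myogenic differentiation markers were higher as well, with summed levels of 1136 and 761 CPM against 2483 and 2398 CPM, and Acta1 was the most abundant of them. The 10 leukocyte markers summed to 13.1 and 27.2 CPM in sham and to 164 and 277 CPM in overloaded libraries. Lyz2 was the most abundant of them, 6 of the 10 (C1qa, Cd74, Csf1r, Fcer1g, Lyz2 and Tyrobp) were at 0 in both sham libraries, and the general leukocyte marker Ptprc had 0, 1, 1 and 4 UMIs. The 8 mural cell markers summed to 788 and 729 CPM in sham and 1243 and 1405 CPM in overloaded libraries, most of it Acta2, with Myh11 at 0 in sham. Of 4 mural markers tested, 2 were higher and 1, Tagln (41, 36, 49 and 49 UMIs), was lower. The 8 endothelial markers summed to between 81.5 and 109 CPM in all 4 libraries, with Cldn5 at 0 in sham. Tek, which had the most UMIs over all libraries (10, 12, 5 and 11), was the 1 gene tested and was lower, whereas Cdh5 had 3, 1, 14 and 11 UMIs and Pecam1 4, 2, 11 and 7 UMIs. The 8 fibro-adipogenic markers summed to between 2762 and 3090 CPM, but of 6 tested 2 were higher and 3 lower. Col1a1 had the most UMIs over all libraries, while Gsn led in sham (304 and 269 UMIs) and Col1a2 in overloaded libraries (426 and 465 UMIs), Ly6a had 1, 0, 22 and 41 UMIs, and Pdgfra was at 0 in sham. Of 5 B cell markers only Ighm was in the table, with 0, 0, 0 and 1 UMI. The part of these moving markers in the members' differences was not tested.

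Rbpj and Maml2 were lower in overloaded MuSCs relative to the rest of their libraries, by 1.71-fold and 3.08-fold. Of the 9 members, 6 had enough UMIs to be tested, and these 2 passed an adjusted p of 0.1 (quasi-likelihood F-test of edgeR, Benjamini-Hochberg adjustment over 7228 genes). No member was higher past the threshold in this test. At an unadjusted p of 0.05 the same count of 2 members passed, as did 3732 of the 7228 genes. DESeq2, with 7 members tested, also called 2 lower and 0 higher, and of 10348 genes it called 1215 lower and 967 higher. Limma-voom called 2 lower and 0 higher as well, and of 7228 genes 1936 lower and 1741 higher. The background was high, since 52.1% of all genes tested were called with TMM in edgeR, 25.8% higher and 26.3% lower. The count of 2 lower among 6 was thus near the share among all genes. The median log2 fold change of the 6 members was -0.63, against 0.05 over all genes tested. Per tube, Rbpj turned to a log2 fold change of 0.19 and only Ncstn was called, as higher. Of all 7228 genes, 4481 were then higher and 331 lower.

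The levels of 4 tested members (Rbpj, Maml1, Maml2 and Numb) were lower in both overloaded libraries than in both sham libraries. Such a gap between groups was found for 72.9% of all genes tested. The summed UMIs of the 9 members were 136 and 134 in sham and 129 and 201 in overloaded libraries. In sham libraries, the normalized level of Rbpj was the highest, followed by Maml1, Maml2, Numb, Psen2, Ncstn and Aph1a, and the neighbours Maml2 and Numb, and Psen2 and Ncstn, overlapped in their ranges. In overloaded libraries Rbpj and Maml1 again led, but Maml2 came after Ncstn, Numb and Psen2, and neighbours among these 4 overlapped.

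**Figure D1:**
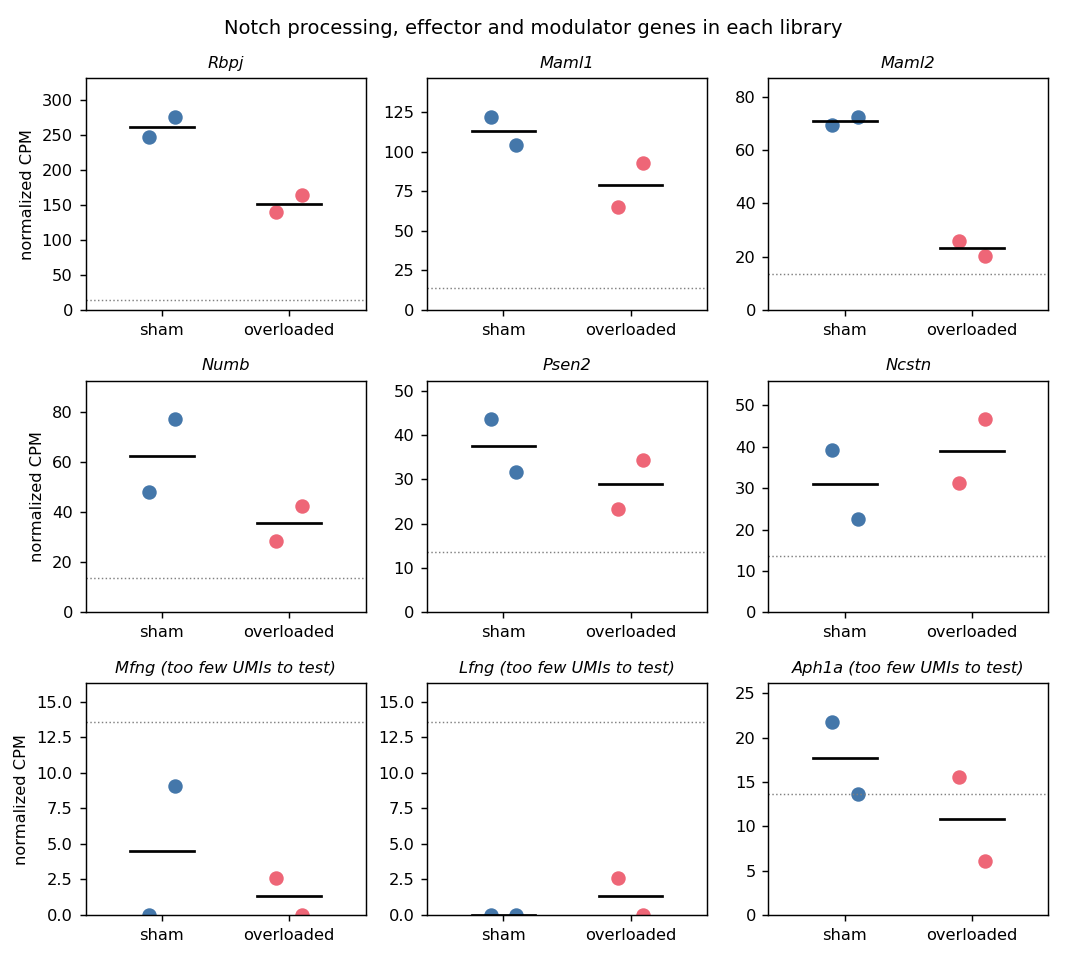
Normalized CPM of each member in the 2 sham (blue) and 2 overloaded (red) libraries. Each point is 1 library, the black bar is the mean of the group, the dotted line is the highest floor (3 UMIs, 13.6 CPM), and each panel has its own axis from 0. The points of Rbpj, Maml1, Maml2 and Numb do not overlap between groups, whereas Lfng and Mfng lie under the floor in every library.

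Rbpj, the DNA-binding protein through which all Notch receptors act, lies on chromosome 5 (chr5:53466152-53657362, plus strand, GRCm38). Its counts were 57 and 61 UMIs in sham and 54 and 81 UMIs in overloaded libraries. The counts per tube overlapped, whereas the normalized levels were 248 and 276 CPM in sham and 140 and 164 CPM in overloaded libraries, and did not overlap. The mean fell from 262 ± 20.0 CPM (SD, n = 2) to 152 ± 16.7 CPM (SD, n = 2), a change of -0.77 on the log2 scale (standard error, SE, 0.20, 95% interval -1.19 to -0.36, adjusted p = 0.0046, edgeR). Rbpj belonged to decile 9 of genes by abundance (decile 10 being the most abundant), in which 44.5% of genes were lower and the median log2 fold change was -0.28. When single libraries were left out, its log2 fold change ran from -0.90 to -0.66 and stayed past the threshold. Per tube it was 0.19, when the median of all genes was 1.01. A pair of antisense genes lies in introns of Rbpj, of which Gm10441 had 5 UMIs in all, and the strand setting used in counting is not stated in the sources used here. The processed pseudogene Rbpj-ps3, a near copy elsewhere in the genome, had 0, 0, 1 and 1 UMI.

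Maml2, one of the coactivators that bridge the Notch intracellular domain and histone acetyltransferases, lies on chromosome 9 (chr9:13297957-13709388, plus strand). It had 16 and 16 UMIs in sham and 10 and 10 UMIs in overloaded libraries. Maml2 was the only tested member with fewer UMIs per tube in both overloaded libraries than in both sham libraries. Its normalized level was 69.6 and 72.5 CPM in sham and 26.0 and 20.3 CPM in overloaded libraries. The mean fell from 71.1 ± 2.0 CPM (SD, n = 2) to 23.1 ± 4.07 CPM (SD, n = 2), a change of -1.62 on the log2 scale (SE 0.39, 95% interval -2.45 to -0.80, adjusted p = 0.0030, edgeR). In its abundance decile, decile 2, 10.9% of genes were lower and the median log2 fold change was 0.36. When single libraries were left out it ran from -1.78 to -1.43, always past the threshold. Per tube it was -0.67 and no longer passed (adjusted p = 0.20, edgeR). Genes with UMIs of their own, 3 in number, lie in introns of Maml2. Phxr4, on the same strand, had 12, 6, 6 and 5 UMIs, and Gm47087, also on the same strand, had 2, 7, 5 and 2 UMIs. Gm17571, on the opposite strand, had 7, 8, 10 and 8 UMIs.

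Because Rbpj and Maml2 were the members past the threshold, 3 windows at their annotated starts are shown, with the core letters of the Rbpj-binding motif. The windows run from 250 bases before to 50 bases after a start and come from RefSeq (GRCm38.p6). Capitals mark TGGGAA or its reverse complement TTCCCA, searched on both strands, and positions count the leftmost base of a match from the start as 0. The Rbpj window (chr5:53590096-53590395, plus strand) held matches at -149 and -65. A further Rbpj window (chr5:53590236-53590535) overlaps it and holds the second of these sites again, at -205. Both Rbpj windows lie at starts inside the gene as located above (chr5:53466152-53657362), not at its 5′ end. The 5′ window of Maml2 (chr9:13297708-13298007, plus strand) held none, and the window at an internal start (chr9:13662210-13662509, plus strand) held 1 at -145.
Rbpj: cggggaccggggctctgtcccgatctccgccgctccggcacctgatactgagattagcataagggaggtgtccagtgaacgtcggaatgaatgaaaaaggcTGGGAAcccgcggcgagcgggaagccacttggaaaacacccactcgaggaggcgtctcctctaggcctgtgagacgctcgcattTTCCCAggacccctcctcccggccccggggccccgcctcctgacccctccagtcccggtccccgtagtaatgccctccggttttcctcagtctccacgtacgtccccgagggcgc
Maml2 5′ start: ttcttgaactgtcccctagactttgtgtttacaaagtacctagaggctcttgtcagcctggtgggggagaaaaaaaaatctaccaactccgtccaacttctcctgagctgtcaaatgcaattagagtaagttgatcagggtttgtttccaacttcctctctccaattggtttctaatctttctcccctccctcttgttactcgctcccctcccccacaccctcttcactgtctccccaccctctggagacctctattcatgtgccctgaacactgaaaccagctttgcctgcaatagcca
Maml2 internal start: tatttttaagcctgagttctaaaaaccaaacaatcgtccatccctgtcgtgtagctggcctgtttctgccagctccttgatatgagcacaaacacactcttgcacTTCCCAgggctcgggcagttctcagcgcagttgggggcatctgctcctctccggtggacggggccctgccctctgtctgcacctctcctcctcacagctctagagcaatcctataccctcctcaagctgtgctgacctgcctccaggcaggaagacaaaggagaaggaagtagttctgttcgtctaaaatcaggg
Of all 32851 windows of this length in the table, 25.6% held these letters, and among the members 6 of 13 windows did, the shared Rbpj site counting in both of its windows, in 5 of the 8 members that matched the table. A match is a description of the letters and not of binding.

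Maml1, the most abundant Mastermind gene in each library (chr11:50255634-50292311, minus strand), had 28 and 23 UMIs in sham and 25 and 46 UMIs in overloaded libraries. Its normalized level was 122 and 104 CPM in sham and 65.0 and 93.2 CPM in overloaded libraries, so the groups did not overlap. The difference did not pass the threshold (113 ± 12.5 against 79.1 ± 19.9 CPM, SD, n = 2, log2 fold change -0.49, SE 0.29, 95% interval -1.11 to 0.13, adjusted p = 0.19, edgeR). When single libraries were left out, it ran from -0.80 to -0.27. An antisense gene that touches exons of Maml1, Gm26542, is not in the table. Maml3, the remaining Mastermind gene and not a member, had 10 and 9 UMIs in sham and 23 and 29 UMIs in overloaded libraries, with normalized levels of 43.5 and 40.8 CPM against 59.8 and 58.7 CPM. Its log2 fold change of 0.49 (SE 0.38) did not pass (adjusted p = 0.31, edgeR).

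Within a library, the share of a gene in its family does not depend on scaling. Of the 54 and 48 Mastermind UMIs of the sham libraries, Maml2 held 29.6% (95% exact Clopper-Pearson interval 18.0 to 43.6) and 33.3% (20.4 to 48.4). Of the 58 and 85 UMIs of the overloaded libraries it held 17.2% (8.59 to 29.4) and 11.8% (5.79 to 20.6). The share of Maml3 was 18.5% and 18.8% in sham and 39.7% and 34.1% in overloaded libraries. The share of Maml1 was 51.9% and 47.9% against 43.1% and 54.1%, and overlapped between the groups. The intervals cover counting error only, and those of a sham and an overloaded library overlapped in every pairing for Maml2 and Maml3. A permutation of 2 libraries against 2 cannot give an exact two-sided p under 0.333, so no test of the shares was made.

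**Figure D2:**
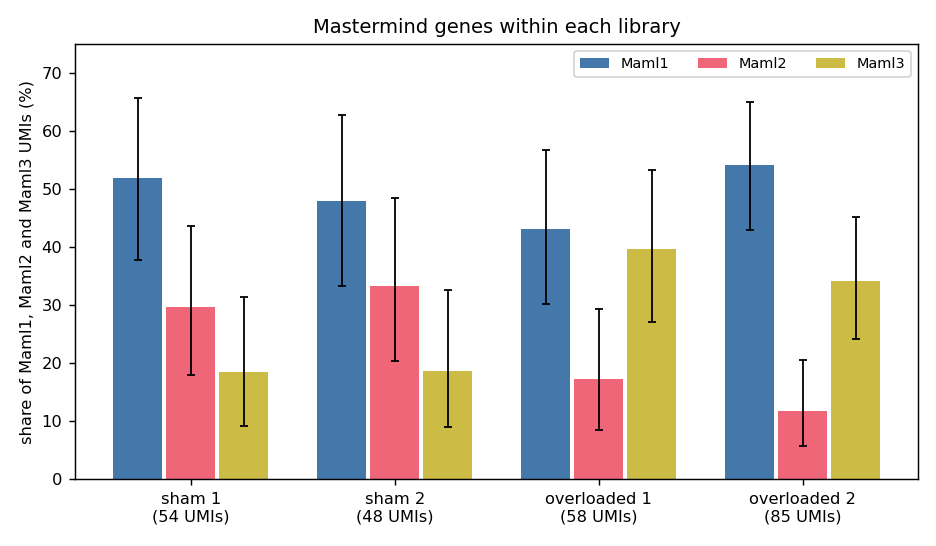
Share of Maml1, Maml2 and Maml3 among the UMIs of the 3 Mastermind genes, in percent, in each library, with 95% exact intervals as error bars. The Maml2 bars are at 29.6% and 33.3% in sham and 17.2% and 11.8% in overloaded libraries, while the Maml3 bars are higher in both overloaded libraries.

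Numb, an adaptor that brings receptors into endocytosis and is passed unequally to daughter cells in some divisions, lies at chr12:83794034-83921934 on the minus strand. It had 11 and 17 UMIs in sham and 11 and 21 UMIs in overloaded libraries. Its normalized level was 47.9 and 77.0 CPM in sham and 28.6 and 42.5 CPM in overloaded libraries, without overlap. The difference did not pass the threshold (62.4 ± 20.6 against 35.6 ± 9.85 CPM, SD, n = 2, log2 fold change -0.77, SE 0.40, 95% interval -1.62 to 0.08, adjusted p = 0.13, edgeR). It passed without sham replicate 1 (-1.08, adjusted p = 0.063, edgeR) and without overloaded replicate 2 (-1.11, adjusted p = 0.097, edgeR), whereas it was -0.39 without sham replicate 2 (adjusted p = 0.59, edgeR) and -0.53 without overloaded replicate 1 (adjusted p = 0.40, edgeR). Numbl, the related adaptor, had 12 and 18 UMIs in sham and 17 and 22 in overloaded libraries, and a log2 fold change of -0.58 that did not pass (adjusted p = 0.22, edgeR). Numb held 47.8% and 48.6% of the UMIs of this pair in sham and 39.3% and 48.8% in overloaded libraries.

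The γ-secretase members were scarce. Psen2, a catalytic subunit (chr1:180227004-180263438, minus strand), was counted 10, 7, 9 and 17 times in sham 1, sham 2, overloaded 1 and overloaded 2. The normalized levels of 43.5 and 31.7 CPM in sham and 23.4 and 34.4 CPM in overloaded libraries overlapped, and the log2 fold change was -0.35 (SE 0.43, 95% interval -1.26 to 0.56, adjusted p = 0.55, edgeR), with a range of -0.68 to -0.10 when single libraries were left out.

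Ncstn encodes nicastrin, the subunit that screens substrates (chr1:172066013-172082795, minus strand). It had 9 and 5 UMIs in sham and 12 and 23 UMIs in overloaded libraries. Ncstn was the only tested member with more UMIs per tube in both overloaded than in both sham libraries, and per tube its log2 fold change of 1.31 passed the threshold (adjusted p = 0.036, edgeR), with the median of all genes at 1.01. After normalization, the levels of 39.2 and 22.7 CPM in sham and 31.2 and 46.6 CPM in overloaded libraries overlapped. The log2 fold change was then 0.35 (SE 0.45, 95% interval -0.60 to 1.30, adjusted p = 0.55, edgeR), with a range of 0.0064 to 0.80 when single libraries were left out, and with offsets that remove the trend of fold changes with abundance it was -0.24. The start of Ncstn overlaps that of Copa on the opposite strand, which had 84, 66, 116 and 155 UMIs.

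Aph1a, a scaffold subunit (chr3:95893969-95898288, plus strand), had 5 and 3 UMIs in sham and 6 and 3 UMIs in overloaded libraries and was not tested. The ratio of its summed counts, overloaded to sham, was 0.58 after scaling, with a 95% exact counting interval of 0.20 to 1.72. Its 3′ end overlaps Car14 on the opposite strand, which is not in the table. Of the other γ-secretase subunits, Aph1b had 8, 3, 8 and 14 UMIs, Aph1c 1, 0, 1 and 0 UMIs and Psenen 6, 7, 8 and 18 UMIs. Of the 7 subunits, 3 were tested and, against 52.1% of all genes, 0 passed with TMM in edgeR, 0 at an unadjusted p of 0.05 in that fit and 0 with DESeq2 or limma-voom, whereas in edgeR 1 was higher per tube (Ncstn) and 1 lower with the offsets (Psen2).

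The Fringe members were near or at 0. Lfng (chr5:140607320-140615545, plus strand) had 0 UMIs in both sham libraries and 1 and 0 in the overloaded libraries. Mfng (chr15:78755882-78773475, minus strand) had 0 and 2 UMIs in sham and 1 and 0 in overloaded libraries. Both genes were at or under the floor of 3 UMIs in every library, and no fold is given. Rfng, the third Fringe gene, had 4, 3, 5 and 10 UMIs and held most of the Fringe UMIs in each library. Pofut1 and Poglut1, which add O-fucose (the sugar that Fringe enzymes extend) and O-glucose to the receptor, were the tested genes of this list. Pofut1 had 12, 6, 15 and 28 UMIs and a log2 fold change of 0.28 (adjusted p = 0.62, edgeR). Poglut1 had 1, 9, 23 and 14 UMIs and a log2 fold change of 0.92 (adjusted p = 0.23, edgeR), which ran from 0.05 without sham replicate 1 (adjusted p = 0.95, edgeR) to 3.18 without sham replicate 2 (adjusted p = 0.0044, edgeR), and also passed without overloaded replicate 2 (1.41, adjusted p = 0.042, edgeR). With all libraries, neither passed with TMM in edgeR, at an unadjusted p of 0.05 in that fit, in DESeq2 or in limma-voom. Per tube, Pofut1 (1.24, adjusted p = 0.038, edgeR) and Poglut1 (1.86, adjusted p = 0.014, edgeR) both passed, and with library sizes alone Poglut1 did (1.2, adjusted p = 0.089, edgeR).

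Fold changes in these libraries were lower at higher abundance. In the lowest decile by abundance the median log2 fold change was 0.53 and in the highest -0.74, and 70.8% of the most abundant genes were lower against 5.81% higher. Rbpj, an abundant gene, lay below the median of its decile. With offsets that remove the trend its log2 fold change was -0.49 and still past the threshold of 0.1 (adjusted p = 0.063, edgeR). The fall of Maml2, a scarce gene, went against the trend and was -2.03 with the offsets. With them Numb (-1.07, adjusted p = 0.043, edgeR) and Psen2 (-0.98, adjusted p = 0.090, edgeR) passed as well, so that 4 of 6 members were lower, against 1605 of all 7228 genes tested (1645 higher).

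**Figure D3:**
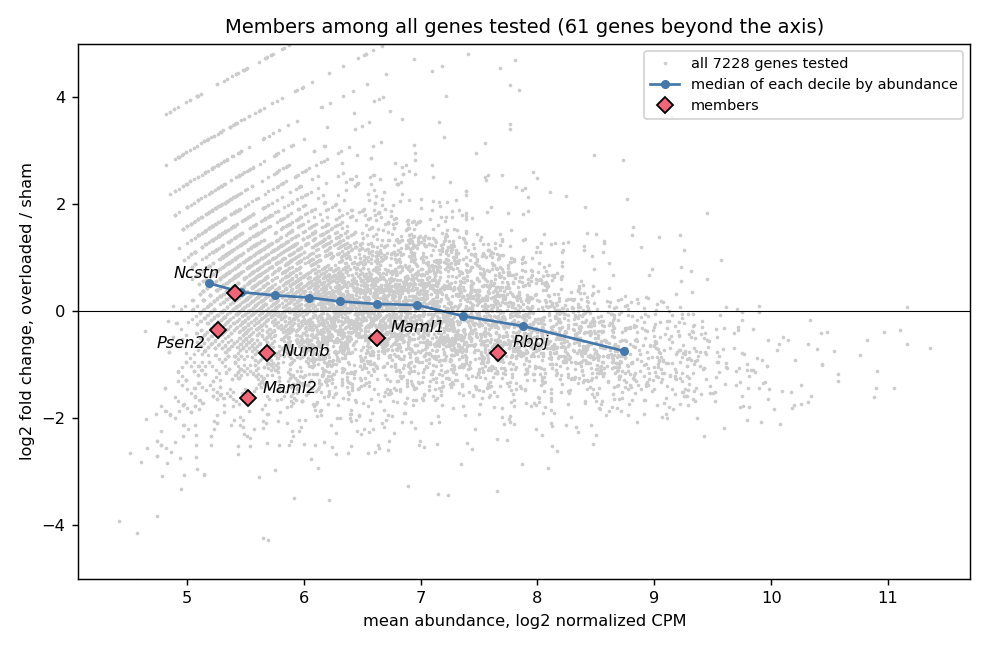
Log2 fold change of overloaded over sham against mean abundance (log2 normalized CPM) for all 7228 genes tested (grey), the median of each abundance decile (blue line) and the 6 tested members (red), with 61 genes outside the vertical range. The blue line runs from 0.53 to -0.74, and Maml2 lies farthest below it of the members.

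**Figure D4:**
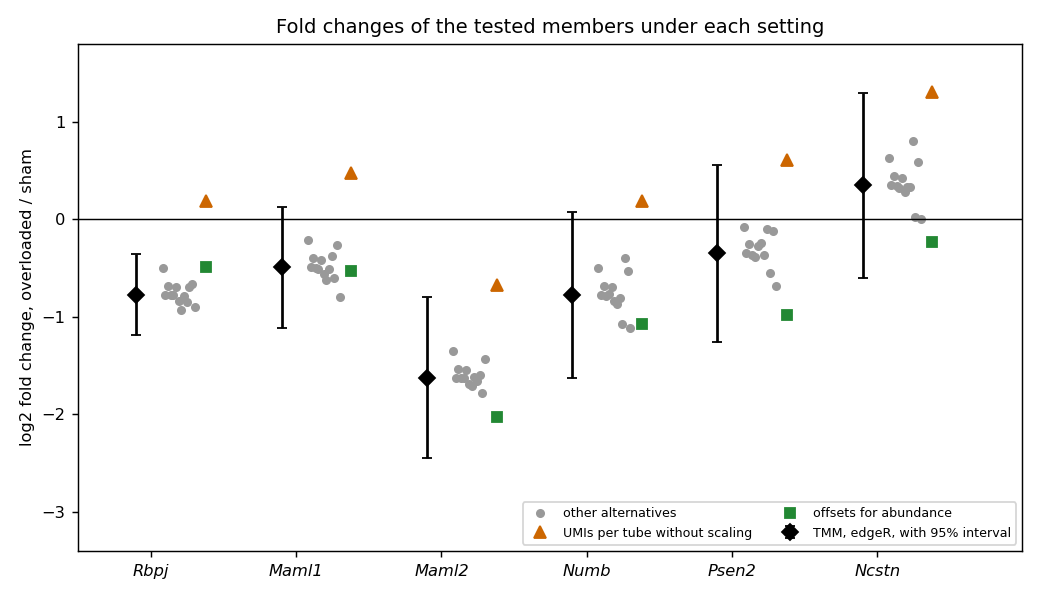
Log2 fold change of each tested member under TMM with its 95% interval (black), per tube without scaling (orange), with offsets for abundance (green) and under the other alternatives that change a value (grey). Every Maml2 point lies under 0, the Rbpj point per tube is at 0.19, and the Ncstn points run from -0.24 to 1.31.

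The members were set beside the other genes of the pathway by role. Of 92 other gene symbols listed (Skp1 by both of its symbols), 86 were in the table and 65 were tested, of which 12 were higher and 19 lower (47.7% called, against 52.1% of all genes), with a median log2 fold change of -0.08. Per tube 40 of them were higher and 1 lower, with library sizes alone 22 and 13, and with the offsets 18 and 15. For all 7228 genes, the calls divided into 1868 higher and 1898 lower with TMM, 2694 and 1351 with library sizes alone, and 4481 and 331 per tube. With no filter on low counts they were 2451 and 1803 of 19353 genes. The directions given are therefore relative to TMM. DESeq2 called 967 higher and 1215 lower of 10348 genes, so its counts in the lists below have a lower background than 52.1%.

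Of the 9 genes of the Rbpj activator complex, all tested, 5 were lower in overloaded MuSCs and 0 higher, with a median log2 fold change of -0.74. Of all genes, 26.3% were lower and 52.1% called in either direction. Per tube 2 of the 9 were higher and 0 lower (4481 and 331 of all 7228 genes). DESeq2 called 3 of them, all lower (1215 of 10348 genes were lower). At an unadjusted p of 0.05 in edgeR the same number, 5, passed. Beside Rbpj and Maml2 these were Crebbp, Ep300 and Snw1. Crebbp, a histone acetyltransferase recruited by Mastermind proteins, had 479 and 553 CPM in sham and 315 and 223 CPM in overloaded libraries (log2 fold change -0.95, SE 0.19, adjusted p = 6.5e-04, edgeR). Crebbp was in the highest abundance decile, and was -0.37 with the offsets (adjusted p = 0.084, edgeR) and -0.01 per tube (adjusted p = 0.98, edgeR). Ep300, its close relative, had 200 and 204 CPM against 130 and 113 CPM (-0.74, SE 0.22, adjusted p = 0.011, edgeR), but had more UMIs per tube in both overloaded libraries and was 0.22 per tube. Both sets of levels were apart between groups. Snw1, a splicing factor that also contacts Rbpj, had 12 and 14 UMIs in sham and 8 and 15 UMIs in overloaded libraries (-1.13, adjusted p = 0.031, edgeR). Its call was lost without sham replicate 2 (adjusted p = 0.14, edgeR) or overloaded replicate 1 (adjusted p = 0.16, edgeR). Kat2b (-0.55, adjusted p = 0.13, edgeR) and Kat2a (0.53, adjusted p = 0.23, edgeR), further acetyltransferases, did not pass.

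Corepressors bind Rbpj when the Notch intracellular domain is absent. Of 16 tested, 2 were higher and 4 lower (25.8% and 26.3% of all genes), with a median log2 fold change of -0.03, and per tube 12 were higher and 0 lower, while DESeq2 called 3 in all. Tle4, a Groucho corepressor, fell from 91.4 and 113 CPM to 33.8 and 48.6 CPM (-1.28, SE 0.34, adjusted p = 0.0060, edgeR). Ncor1, a scaffold for histone deacetylases, was -0.50 (adjusted p = 0.025, edgeR), was 0.47 per tube and 0.03 with the offsets, and lost its call without sham replicate 2 (adjusted p = 0.18, edgeR). Sap30, a subunit of the Sin3 complex, had 3 and 0 UMIs in sham and 17 and 31 UMIs in overloaded libraries, a ratio of 8.21 after scaling (95% exact counting interval 2.64 to 41.2, adjusted p = 0.0019, edgeR). The fitted log2 fold change of Sap30 was 2.96, and 2.03 without sham replicate 2, while without sham replicate 1 the sham group held 0 UMIs.

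Of 15 genes around Numb and receptor trafficking that were tested, Numb included, 1 was higher and 3 lower (52.1% of all genes were called), but DESeq2 called 0 and limma-voom 5, and per tube 7 were higher and 0 lower. Nedd4l, a ubiquitin ligase, fell from 170 and 172 CPM to 101 and 91.1 CPM (log2 fold change -0.83, SE 0.24, adjusted p = 0.0086, edgeR) and was 0.13 per tube. The Deltex genes moved in both directions. Dtx3l had 4, 3, 13 and 26 UMIs (1.49, adjusted p = 0.025, edgeR), Dtx4 was -0.52 (adjusted p = 0.031, edgeR) and Dtx3 was -0.73 (adjusted p = 0.033, edgeR), the last pair with 0.44 and 0.24 per tube. Each lost its call without sham replicate 2, with adjusted p of 0.11, 0.19 and 0.21 in that order (edgeR). Dtx3l and Dtx4 also lost it without overloaded replicate 2 (0.25 and 0.12), and Dtx3 without overloaded replicate 1 (0.20). With the offsets Dtx3l was 0.65 (adjusted p = 0.37, edgeR) and Dtx4 was -0.15 (adjusted p = 0.54, edgeR), neither past the threshold.

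Of 7 tested genes listed under turnover of the Notch intracellular domain, 2 were higher and 2 lower, near the 25.8% and 26.3% of all genes (per tube 4 and 1, and with DESeq2 3 calls in all). Whether each of them acts on the domain itself was not tested. Huwe1, a large ubiquitin ligase, fell from 496 and 666 CPM to 208 and 190 CPM (log2 fold change -1.55, SE 0.18, adjusted p = 5.9e-06, edgeR), and was -0.58 per tube and still called. Med13, of the Mediator kinase module, fell from 501 and 521 CPM to 234 and 227 CPM (-1.15, SE 0.17, adjusted p = 4.2e-05, edgeR), with -0.19 per tube. With the offsets Huwe1 was -0.998 and Med13 -0.59, both still called. Ccnc, the cyclin of the same module, rose from 30.5 and 36.2 CPM to 96.2 and 81.0 CPM (1.39, SE 0.38, adjusted p = 0.0066, edgeR). These subunits of 1 module thus went in opposite directions. Rbx1, a subunit of cullin ligases, was 0.65 higher (adjusted p = 0.028, edgeR), but not past the threshold without sham replicate 1 (0.15) or overloaded replicate 1 (0.19).

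Of 3 tested genes in the list of sheddases and furin, 2 were higher and 1 lower (25.8% and 26.3% of all genes). Per tube 3 were higher and 0 lower, and DESeq2 called 1, as higher. Adam10, which makes the first cut of an activated receptor, had 16 and 5 UMIs in sham and 60 and 73 UMIs in overloaded libraries, and 69.6 and 22.7 CPM against 156 and 148 CPM. It rose by 1.69 on the log2 scale (SE 0.35, adjusted p = 8.3e-04, edgeR), which was 2.72 without sham replicate 1 and 1.12 without sham replicate 2. Adam17 was 0.71 (adjusted p = 0.062, edgeR) and lost its call without sham replicate 2 (0.29) or overloaded replicate 1 (0.20) and with DESeq2 (0.32). Furin, which cuts the receptor during its maturation, was -0.38 (adjusted p = 0.093, edgeR), 0.59 per tube and 0.17 with the offsets. Furin lost its call without sham replicate 1 (0.33), sham replicate 2 (0.17) or overloaded replicate 1 (0.35).

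On the side of the sending cell, Neurl1a, a ubiquitin ligase for ligands, had 5 and 3 UMIs in sham and 28 and 44 UMIs in overloaded libraries, and rose by 2.18 on the log2 scale (SE 0.45, adjusted p = 9.3e-04, edgeR). It was the 1 gene called of 5 tested in its list (52.1% of all genes were called), and with the offsets 3 and with library sizes alone 4 of the 5 were higher. Dnm2 (0.62), Epn1 (0.36) and Mib1 (0.33), which act in ligand endocytosis, did not pass with TMM, and all 5 were higher per tube. Of 5 receptors and ligands tested, 2 were higher and 2 lower, and of 6 genes of the Hes and Hey list, which also holds their relatives Bhlhe40 and Bhlhe41, 2 were higher and 4 lower (25.8% and 26.3% of all genes). Per tube these counts were 3 and 0, and 2 and 0, and with the offsets 3 and 2, and 2 and 2. Among them, Dll1 (log2 fold change 1.89) and Hes6 (2.93) rose (adjusted p = 0.0012 and 3.5e-05, edgeR), while Notch3 had 762 and 738 CPM in sham and 372 and 344 CPM in overloaded libraries (log2 fold change -1.07, adjusted p = 5.3e-05, edgeR), and Heyl 501 and 557 against 320 and 318 CPM (-0.73, adjusted p = 0.0018, edgeR), with -0.11 and 0.23 per tube, and with the offsets -0.32 and -0.09, when Heyl lost its call (adjusted p = 0.68, edgeR).

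**Figure D5:**
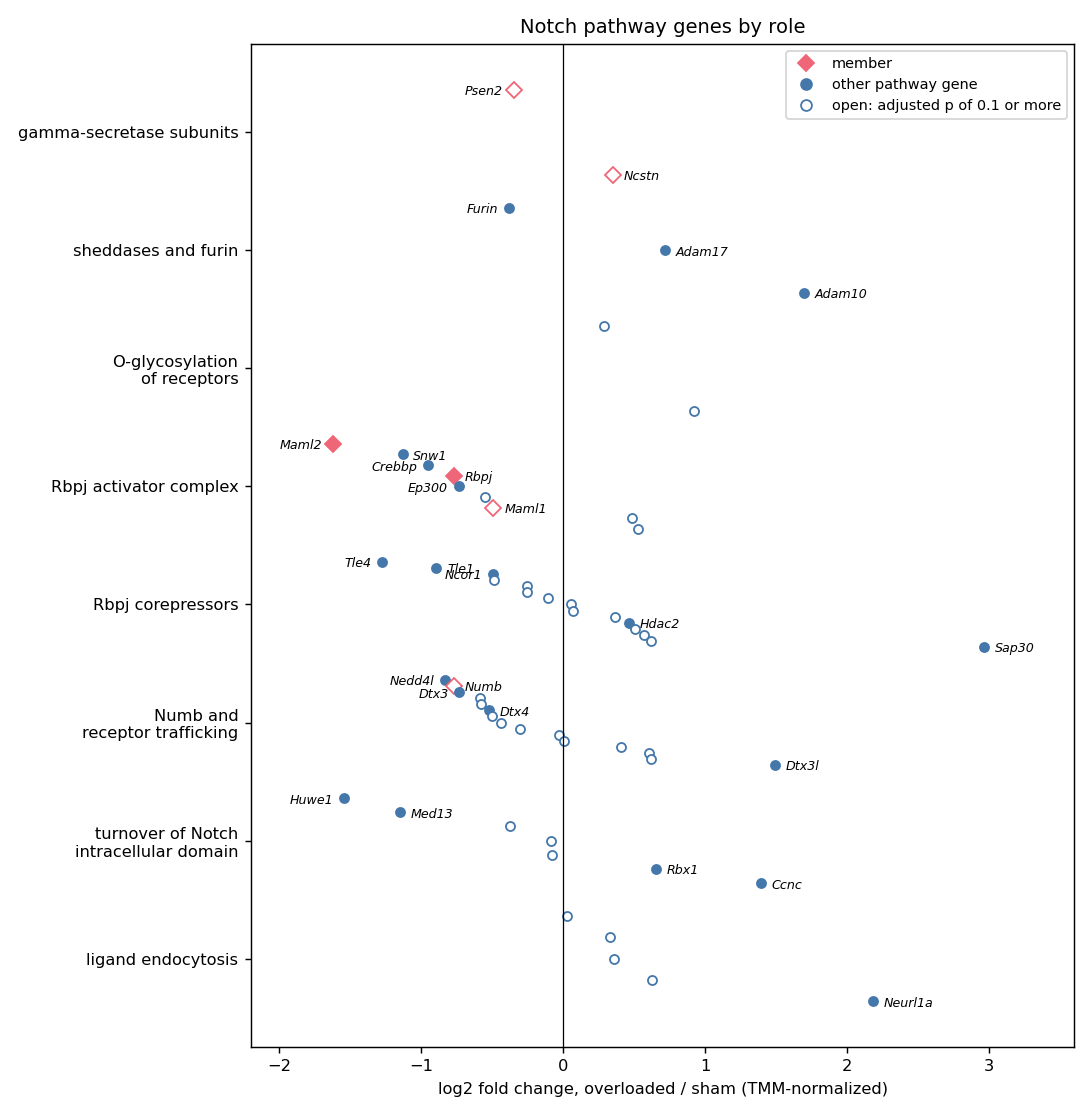
Log2 fold change (overloaded over sham, TMM-normalized) of the tested pathway genes reported here, in rows by role. Diamonds are members and circles other genes, and filled symbols passed an adjusted p of 0.1. The 5 filled symbols of the activator complex all lie under 0, and the 1 filled symbol of the ligand endocytosis row lies above 0.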

How the data were processed

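RNA-seq libraries of YFP-sorted MuSCs (100 cells per tube, 2 sham and 2 overloaded) were analysed from 1 table. The authors extracted UMIs with UMI-tools (version 1.0.0), aligned to GRCm38 with HISAT2 (2.1.0), assigned reads with featureCounts (1.6.4) and deposited the count of UMIs per gene without normalization. The annotation release and strand setting are not given in the sources used here.

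Genes were kept by filterByExpr (minimum count 10, minimum total 15), scaled by TMM and tested by the quasi-likelihood test of edgeR (version 4.0.16, R version 4.3.3) over both groups, with Benjamini-Hochberg adjustment over 7228 genes and a threshold of 0.1. The common biological coefficient of variation was 9.50%, and 3732 genes had an unadjusted p under 0.05. Fitted fold changes used a prior count of 0.125. The libraries held 260488 to 483528 UMIs. Libraries of a group differed by more than sampling noise (chi-square per degree of freedom 1.31 in sham and 1.50 in overloaded, against 6.34 to 7.86 between groups). They were counted as separate samples, although such a spread cannot tell separate mice from tubes of the same mouse. The fit was also run on simulated data, but the outcome is not given here and no statement rests on it.

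Alternatives were library sizes alone, DESeq2 size factors, upper-quartile factors, UMIs per tube, loess offsets for abundance (span 0.7), DESeq2 (version 1.42.0), limma-voom (limma version 3.58.1), no filter, a filter of 10 or more counts in both libraries of a group, thinning to 260488 UMIs, a threshold of 0.05, a replicate block, a robust fit and each library left out. Tables and figures used Python 3.11.15, numpy 2.4.6, pandas 2.3.3, scipy 1.17.1 and matplotlib 3.10.9.

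The members and lists were chosen with earlier results of these data known, so no p is given over a list. All 9 members were named, with up to 4 further tested genes of the smallest p in each list, except for some genes that are counted in the lists but not reported here. Listed genes with no row in the table (among them Tle5, Dtx1, Nrarp, Neurl3, Dll3, Cd79a, Cd79b and Ms4a1) were not used, and Skp1 was found under its older symbol Skp1a. Loci and overlaps came from GENCODE M21 (GRCm38), where all 19353 identifiers matched and 19331 had the same name.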

Additional observations from a re-analysis of the deposited data

How the results depend on the processing

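Rbpj and Maml2 each kept their fall and their call in 16 of 17 alternatives. The exception was UMIs per tube, which reversed Rbpj (0.19), Maml1 (0.48), Numb (0.19) and Psen2 (0.61) on the log2 scale, and under which 1 member was called, against 2 with TMM. Offsets for abundance reversed Ncstn (-0.24) and gave 4 members, with 3250 genes called in all. DESeq2 called 2182 of 10348 genes (967 higher, 1215 lower), against 3766 of 7228 with TMM in edgeR. Of the other pathway genes it called 17 of 76, against 31 of 65. Leaving out single libraries, 3070 to 3435 genes, 2 to 3 members and 26 to 31 other pathway genes were called. Whether sham and overloaded libraries came from opposite legs of the same mice is not stated in the sources used here. The correlation of same-numbered deviations was -0.03, which does not decide this. A replicate block called 3670 genes, 2 members and 31 other pathway genes. Psen2 had no value under the filter of 10 or more counts in both libraries of a group. With 2 libraries a group and at most 81 UMIs per member and library, the size of change that could be detected for the scarce members was not measured.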
